A study of Homo sapiens with 6 samples.

Results

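Interferon-stimulated genes are the genes a cell switches on when interferon reaches its receptor or when viral nucleic acid is sensed inside it. The list described here held 42 of them, chosen by name as classical members of that response, out of 20824 genes listed in any of the 6 libraries. All 42 had a value in at least 1 library. The libraries were made by mRNA sequencing of A549, a human lung adenocarcinoma line used as a model of alveolar epithelium. In the first group the cells carried a short hairpin RNA (shRNA) against C19orf12, a gene of mitochondrial and endoplasmic reticulum membranes (3 libraries, called knockdown), and the titles give all 3 the same hairpin number. Control cells carried a scrambled shRNA (3 libraries, called scramble), which the submitters use in place of a wild type. Both groups therefore expressed a hairpin, and a response common to both would show in the levels and not in the comparison. The labels do not tell whether the 3 libraries of a group are separate cultures. P-values here reflect only how much these 6 libraries vary, which may be technical variation.

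Interferons of type I and III bind receptors that act through JAK kinases, and the kinases activate a transcription factor complex that holds STAT2 and IRF9. That complex binds a short DNA element before the start of its target genes. Double-stranded RNA in the cytoplasm is seen by RIG-I (gene RIGI), MDA5 (gene IFIH1), the kinase PKR (gene EIF2AK2) and the OAS enzymes, and hairpin RNAs can set these sensors off. The comparison asked whether knockdown cells differed from scramble cells in that response as a whole or in single genes.

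Library totals were between 10229890 and 10647587 expected counts. Levels are given in CPM (counts scaled to library size) with TMM scaling, and 3 counts in a library correspond to 0.282 to 0.293 CPM. C19orf12 itself had 24.2, 26.4 and 25.2 CPM in knockdown and 42.5, 41.1 and 63.3 CPM in scramble libraries, so knockdown cells kept 51.6% of the scramble mean (log2 fold change -0.95, SE 0.20, edgeR adjusted p = 0.015, and -0.73 without scramble replicate 3). Scramble replicate 3 stood apart: its log2 CPM correlated with the other scramble libraries at 0.951 and 0.952, against 0.989 between the other scramble libraries themselves. Its differences from them followed the GC content of the transcripts, and calls are therefore given with and without it. The epithelial keratin genes KRT8 and KRT18 were expressed at 4559 CPM or more in knockdown and at 1150 CPM or more in scramble libraries. The summed level of 5 epithelial markers was 12198 to 12353 CPM in knockdown and 4894 to 7206 CPM in scramble libraries, and its part in the results below was not tested. That difference was carried by KRT8 and KRT18, both called higher (log2 fold changes 1.79 and 1.31, edgeR adjusted p = 0.000246 and 0.00135). KRT7 overlapped between the groups. CDH1 (0.30, edgeR adjusted p = 0.254) and EPCAM, at most 2.6 CPM (1.06, edgeR adjusted p = 0.059), were not called. Leukocyte markers, of which 4 of 6 had a value, summed to 50.9 to 56.1 CPM in knockdown and 40.0 to 53.8 CPM in scramble libraries. Most of that sum was CD68, at 46.8 to 52.7 CPM in knockdown and 36.2 to 50.0 CPM in scramble libraries. Endothelial markers summed to at most 3.9 CPM in any library. Fibroblast markers summed to 23.6 to 25.9 CPM in knockdown and 36.6 to 47.7 CPM in scramble libraries. Nearly all of that sum was COL1A1, at 23.5 to 25.7 CPM in knockdown and 36.2 to 47.5 CPM in scramble libraries. COL1A1 was called lower (log2 fold change -0.75, edgeR adjusted p = 0.0191). The part of these differences in the results below was not tested either.

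A uniform rise of the list was not seen. Of the 42 genes, 31 had enough reads to be tested, and 6 of these rose in knockdown cells (OAS1, OAS3, ISG15, CMPK2, SAMD9 and SAMD9L), while 3 fell (UBE2L6, ISG20 and LGALS3BP) and 22 passed the test in neither direction. The 6 that rose were 19.4% of the tested members, where 5.89% of all 14812 genes tested were called higher. Of the 6, CMPK2, SAMD9 and SAMD9L reached the minimum count in all 3 libraries of the knockdown group alone, so they entered the test through the group where they were high, and the share that rose is a description only. The 3 that fell were 9.68% of the tested members, where 5.64% of all genes were called lower. A call means an adjusted p under 0.05 in edgeR's quasi-likelihood test with Benjamini-Hochberg adjustment over all genes tested. At an unadjusted p under 0.05 the members higher numbered 8 and the members lower 6. The share of all genes at that threshold is not given here, so unadjusted counts here and below are a description only. The median log2 fold change of the 31 tested members was 0.06, beside 0.02 for all genes, and 17 members were positive and 14 negative. The plot of levels in each library shows every member.

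Without scramble replicate 3, 32 members were tested, of which 9 rose and 10 fell. These shares, 28.1% and 31.2%, stood beside backgrounds of 25.7% and 23.8% of all 15029 genes tested, since nearly every other gene was called in that comparison (49.5%). The median log2 fold change of the tested members was then -0.01, beside 0.00 for all genes. Each of the 9 members called with 6 libraries kept its call and direction there. Every knockdown library lay above every scramble library in 9 tested members (29%, beside 18.4% of all genes tested), and every knockdown library lay below in 7 (22.6%, beside 18.6%), so 16 of 31 did not overlap, where 37.0% of all genes tested did not.

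**Figure D1:**
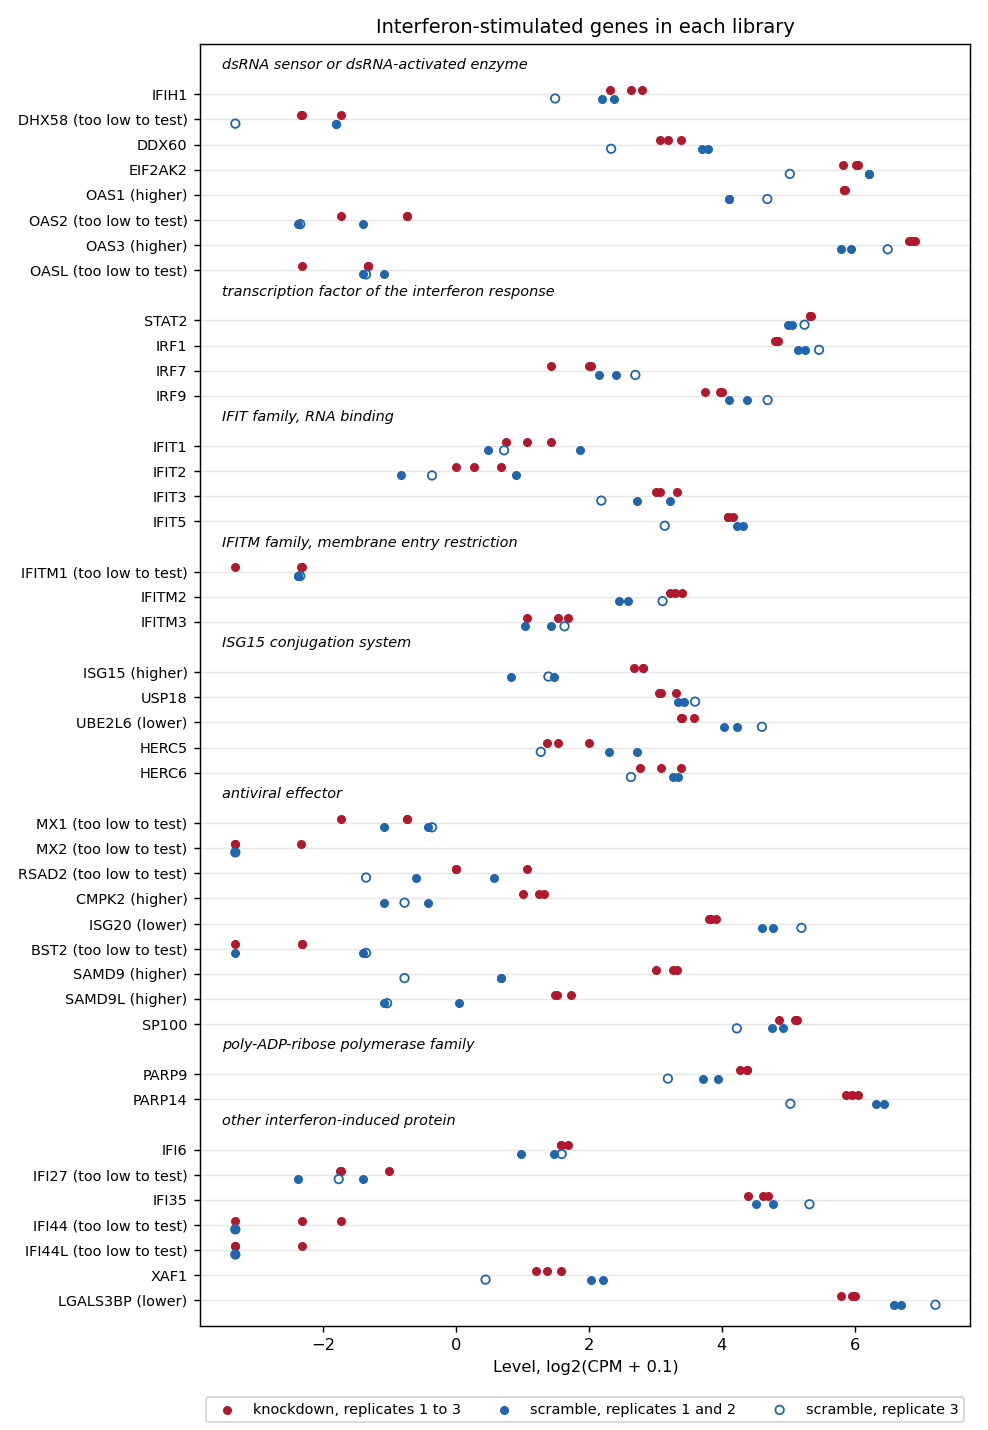
Level of each of the 42 interferon-stimulated genes in each library, as log2(CPM + 0.1), grouped by role, with knockdown libraries as red points and scramble libraries as blue points (replicate 3 open). The labels mark the 6 genes called higher, the 3 called lower and the 11 too low to test, and in most of the other genes the colours overlap or lie close together.

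The DNA before the start of interferon-stimulated genes often carries the element that the STAT2 and IRF9 complex and other IRF factors bind, and it is shown here because genes that rose, genes that fell and genes that passed the test in neither direction are all among those that hold it. Searched was a pair of GAAA blocks with any 2 bases between them, on both strands (overlapping matches joined) in the 250 bases before each start in RefSeq annotation of GRCh38.p14. Of the 34 members with an entry there, 22 held it (64.7%), against 1014 of 27305 genes overall (3.71%). Among the genes that rose, 3 of 6 held it (ISG15, OAS3 and SAMD9), and among those that fell, 2 of 3 (ISG20 and LGALS3BP). It was also present in 10 of 18 members that passed the test in neither direction and in 7 of 7 that were too low to test. A match is a string of letters and not a measured binding site, and its absence from a window says nothing of sites elsewhere. The search required exactly 2 bases between the blocks, so pairs at other spacings were not counted in any window. The OAS1 window holds such a closer pair near its 3′ end. The windows below read 5′ to 3′ on the strand of the gene, with the matches in capitals. They are chr1:1013247-1013496 on the plus strand for ISG15, chr12:112938224-112938473 on the plus strand for OAS3 and chr7:93117980-93118229 on the minus strand for SAMD9. For OAS1, which rose without a match at the searched spacing, the window is chr12:112906712-112906961 on the plus strand. For genes that fell the windows are chr15:88638766-88639015 on the plus strand for ISG20 and chr17:78979924-78980173 on the minus strand for LGALS3BP. IFIT1 (chr10:89392373-89392622, plus strand) is shown as a classical target that passed the test in neither direction.
ISG15: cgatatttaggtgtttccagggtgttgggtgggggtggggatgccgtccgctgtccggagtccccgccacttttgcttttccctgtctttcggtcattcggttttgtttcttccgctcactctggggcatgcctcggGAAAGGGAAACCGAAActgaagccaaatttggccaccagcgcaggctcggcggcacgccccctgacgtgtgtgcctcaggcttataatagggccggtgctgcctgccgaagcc
OAS3: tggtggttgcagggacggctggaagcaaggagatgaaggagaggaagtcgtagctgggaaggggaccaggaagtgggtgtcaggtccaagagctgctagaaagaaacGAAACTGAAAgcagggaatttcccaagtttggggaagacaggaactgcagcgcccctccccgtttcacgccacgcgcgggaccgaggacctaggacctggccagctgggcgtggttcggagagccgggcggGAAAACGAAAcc
SAMD9: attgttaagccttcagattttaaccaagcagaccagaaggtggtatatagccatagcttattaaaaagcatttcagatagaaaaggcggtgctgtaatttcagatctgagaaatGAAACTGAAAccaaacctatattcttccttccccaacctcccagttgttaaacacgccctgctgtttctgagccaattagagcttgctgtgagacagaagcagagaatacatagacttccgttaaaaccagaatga
OAS1: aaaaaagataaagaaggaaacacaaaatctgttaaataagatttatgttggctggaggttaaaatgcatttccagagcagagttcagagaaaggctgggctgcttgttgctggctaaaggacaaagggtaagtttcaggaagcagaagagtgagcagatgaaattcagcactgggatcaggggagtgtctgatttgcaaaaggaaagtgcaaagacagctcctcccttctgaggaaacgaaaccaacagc
ISG20: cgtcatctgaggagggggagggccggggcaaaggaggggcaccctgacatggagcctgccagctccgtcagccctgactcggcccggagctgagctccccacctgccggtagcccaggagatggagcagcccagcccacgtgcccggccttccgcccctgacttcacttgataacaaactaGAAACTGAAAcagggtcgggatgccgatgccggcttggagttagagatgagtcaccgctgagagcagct
LGALS3BP: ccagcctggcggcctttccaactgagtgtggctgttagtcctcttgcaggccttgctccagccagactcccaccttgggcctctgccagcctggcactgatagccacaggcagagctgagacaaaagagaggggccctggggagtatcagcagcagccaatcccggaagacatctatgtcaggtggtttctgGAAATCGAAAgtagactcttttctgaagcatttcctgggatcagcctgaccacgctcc
IFIT1: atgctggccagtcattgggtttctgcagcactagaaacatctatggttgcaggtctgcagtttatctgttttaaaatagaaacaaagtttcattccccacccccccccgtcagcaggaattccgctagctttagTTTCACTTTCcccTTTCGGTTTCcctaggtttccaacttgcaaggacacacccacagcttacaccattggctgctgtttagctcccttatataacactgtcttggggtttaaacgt

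In ISG15 the joined matches began 113 and 107 bases before the start, in OAS3 143 and 12 bases before it, and in SAMD9 136 bases before it. In ISG20 and LGALS3BP the match began 69 and 58 bases before the start. In IFIT1 there were matches at 116 and 103 bases. Genes on both sides of the comparison thus had the element close before the start.

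Among the sensors of double-stranded RNA and the enzymes it activates, OAS1 and OAS3 rose and the others passed the test in neither direction. OAS1, which makes the short 2′-5′ linked adenylate chains that activate RNase L (Entrez gene 4938, chromosome 12), had 57.3, 57.2 and 57.7 CPM in knockdown and 17.2, 17.2 and 25.6 CPM in scramble libraries. All knockdown libraries lay far above all scramble libraries, of which replicate 3 was the highest. The mean was 57.4 ± 0.262 CPM in knockdown and 20.0 ± 4.84 CPM in scramble libraries (SD, n = 3 each), a ratio of 2.87 (log2 fold change 1.52, SE 0.20, edgeR adjusted p = 0.00123, and 1.74 without scramble replicate 3, adjusted p = 1.35e-14).

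OAS3, the large member of the same enzyme family (Entrez gene 4940, chromosome 12), had 120.4, 113.1 and 116.2 CPM in knockdown and 55.5, 61.4 and 90.1 CPM in scramble libraries. The groups did not overlap, but scramble replicate 3 stood nearer to the knockdown libraries than to the other scramble libraries. The ratio of the means was 1.69 (log2 fold change 0.76, SE 0.20, edgeR adjusted p = 0.0387). Upper-quartile scaling ended the call (adjusted p = 0.0531), as did leaving out any single library other than scramble replicate 3 (adjusted p = 0.122 to 0.157), whereas without scramble replicate 3 the log2 fold change was 0.99 (adjusted p = 2.26e-12). The other family members were near the limit of detection: OAS2 had 0.2 to 0.5 CPM in knockdown and 0.0928 to 0.279 CPM in scramble libraries, and OASL had at most 0.371 CPM in any library. Within the family, OAS1 and OAS3 alone could therefore be tested.

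The receptors of double-stranded RNA did not follow OAS1. IFIH1, which encodes MDA5, had 4.9, 6.09 and 6.85 CPM in knockdown and 5.11, 4.46 and 2.71 CPM in scramble libraries (log2 fold change 0.54, edgeR adjusted p = 0.244). EIF2AK2, which encodes the kinase PKR, had 66.2, 56.4 and 64.9 CPM in knockdown and 74.0, 74.0 and 32.4 CPM in scramble libraries. Scramble replicate 3 had the lowest level, well under that of the other scramble libraries, and the log2 fold change was 0.05 with it (edgeR adjusted p = 0.935) and -0.24 without it (adjusted p = 0.00322). DDX60, a helicase that aids RIG-I signalling, had 9.0, 8.29 and 10.4 CPM in knockdown and 12.9, 13.8 and 4.94 CPM in scramble libraries. In edgeR it was called lower without scramble replicate 3 (log2 fold change -0.53, adjusted p = 0.00187) and not with it (-0.19, adjusted p = 0.777). With library quality weights, limma-voom called it lower with all 6 libraries (-0.52, adjusted p = 0.00153). DHX58, which encodes the regulator LGP2, had at most 0.2 CPM in any library.

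**Figure D2:**
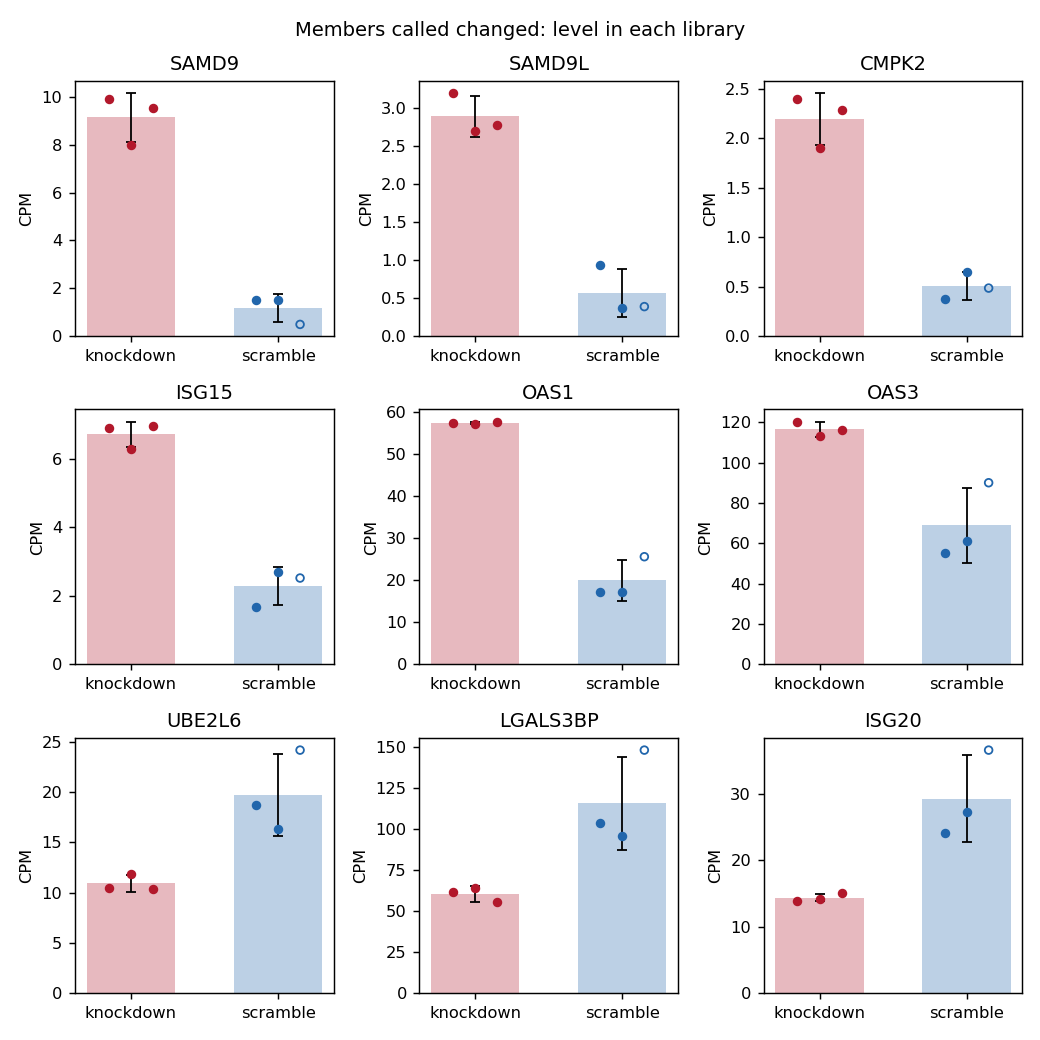
Level in CPM of the 9 interferon-stimulated genes called changed, with knockdown on the left and scramble on the right of each panel; bars are means, error bars are SD over 3 libraries, points are libraries and the open point is scramble replicate 3. The groups do not overlap in any of the 9 panels, and the open point lies highest among the scramble libraries in OAS1, OAS3, UBE2L6, LGALS3BP and ISG20.

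The largest ratios were in SAMD9 and SAMD9L, neighbouring genes of chromosome 7 whose products restrict poxviruses and slow growth and protein synthesis. SAMD9 (Entrez gene 54809) had 9.9, 7.99 and 9.54 CPM in knockdown and 1.49, 1.49 and 0.484 CPM in scramble libraries. Scramble replicate 3 was the lowest of all, and every knockdown library exceeded every scramble library more than 5-fold. The mean was 9.14 ± 1.02 CPM in knockdown and 1.15 ± 0.578 CPM in scramble libraries (SD, n = 3 each), a ratio of 7.94 (log2 fold change 2.97, SE 0.32, edgeR adjusted p = 0.000533, and 2.61 without scramble replicate 3, adjusted p = 1.74e-09). SAMD9L (Entrez gene 219285) had 3.2, 2.7 and 2.78 CPM in knockdown and 0.929, 0.371 and 0.387 CPM in scramble libraries. The groups did not overlap, and the ratio of the means was 5.14 (log2 fold change 2.33, SE 0.36, edgeR adjusted p = 0.00329, and 2.13 without scramble replicate 3, adjusted p = 9.13e-05).

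CMPK2, a mitochondrial nucleotide kinase induced by interferon (Entrez gene 129607, chromosome 2), had 2.4, 1.9 and 2.28 CPM in knockdown and 0.372, 0.65 and 0.484 CPM in scramble libraries. The groups did not overlap, and the ratio of the means was 4.37 (log2 fold change 2.10, SE 0.33, edgeR adjusted p = 0.0034, and 2.08 without scramble replicate 3, adjusted p = 0.000293). CMPK2 had fewer than 10 counts in each scramble library, SAMD9L in 2 of 3, and SAMD9 had 5 counts in scramble replicate 3, so all 3 genes passed the filter on low counts through the knockdown libraries. RSAD2, the neighbour of CMPK2 that encodes the antiviral enzyme viperin, had 0.9, 0.899 and 1.99 CPM in knockdown and 1.39, 0.557 and 0.291 CPM in scramble libraries, which overlapped. Exons of CMPK2 and RSAD2 overlap on opposite strands in GENCODE 29, and whether reads were assigned by strand is not given in the sources used here, so their counts carry that uncertainty. Exons of OAS1, ISG15, IRF1, PARP9, EIF2AK2, XAF1, MX1, IFITM3, IFIT2 and SP100 overlap genes on the opposite strand too, with the same limit. Exons of IRF9, IFIT2, SP100, IFITM1 and IFITM2 overlap a gene on their own strand, which strand cannot resolve.

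ISG20, an exonuclease that degrades single-stranded RNA (Entrez gene 3669, chromosome 15), went the other way, with 13.9, 14.2 and 15 CPM in knockdown and 24.1, 27.2 and 36.6 CPM in scramble libraries. All knockdown libraries lay below all scramble libraries, and scramble replicate 3 was the highest. The mean was 14.4 ± 0.57 CPM in knockdown and 29.3 ± 6.53 CPM in scramble libraries (SD, n = 3 each; log2 fold change -1.03, SE 0.19, edgeR adjusted p = 0.00907, and -0.84 without scramble replicate 3, adjusted p = 2.74e-07). With any single knockdown library left out the call was lost (adjusted p = 0.0529 to 0.0619). SP100, a nuclear body protein, had 28.8, 34.1 and 35.0 CPM in knockdown and 26.9, 30.1 and 18.6 CPM in scramble libraries, which overlapped (log2 fold change 0.37, edgeR adjusted p = 0.307). The remaining effectors were barely expressed: MX1, a dynamin-like inhibitor of viral entry into the nucleus and classical marker of type I interferon, had 0.5, 0.2 and 0.497 CPM in knockdown and 0.65, 0.371 and 0.678 CPM in scramble libraries. Its relative MX2 was at 0 in all libraries but 1, and BST2, which tethers budding virus, had at most 0.291 CPM.

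Within the system that attaches ISG15 to other proteins, the modifier rose and its conjugating enzyme fell. ISG15, the ubiquitin-like modifier itself (Entrez gene 9636, chromosome 1), had 6.9, 6.29 and 6.95 CPM in knockdown and 1.67, 2.69 and 2.52 CPM in scramble libraries. The groups did not overlap, and scramble replicate 3 lay between the other scramble libraries. The mean was 6.72 ± 0.368 CPM in knockdown and 2.29 ± 0.546 CPM in scramble libraries (SD, n = 3 each), a ratio of 2.93 (log2 fold change 1.55, SE 0.23, edgeR adjusted p = 0.0027, and 1.62 without scramble replicate 3, adjusted p = 3.72e-06).

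UBE2L6, the E2 enzyme that hands ISG15 on (Entrez gene 9246, chromosome 11), had 10.5, 11.9 and 10.4 CPM in knockdown and 18.7, 16.3 and 24.2 CPM in scramble libraries. The knockdown mean was 0.554 of the scramble mean, with no overlap (log2 fold change -0.85, SE 0.19, edgeR adjusted p = 0.0204, and -0.68 without scramble replicate 3, adjusted p = 4.77e-05). Leaving out any single knockdown library ended this call (adjusted p = 0.0785 to 0.118). HERC5, the main E3 ligase for ISG15 in human cells, had 3.9, 2.8 and 2.48 CPM in knockdown and 6.5, 4.83 and 2.32 CPM in scramble libraries. Scramble replicate 3 was the lowest of the 6, and the log2 fold change was -0.57 with it (edgeR adjusted p = 0.374) and -0.89 without it (adjusted p = 0.00306). USP18, the protease that removes ISG15, had 9.8, 8.39 and 8.24 CPM in knockdown and 10, 10.7 and 12 CPM in scramble libraries, lower in each knockdown library but not past the test (log2 fold change -0.31, edgeR adjusted p = 0.31). HERC6 had a log2 fold change of -0.01.

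None of the 4 transcription factors in the list passed edgeR's test with all 6 libraries and no correction. None passed DESeq2 or limma-voom without quality weights, although 3 of them had an unadjusted p under 0.05 in edgeR. STAT2 had 40.2, 40.2 and 40.6 CPM in knockdown and 33.2, 31.7 and 37.8 CPM in scramble libraries (log2 fold change 0.24, edgeR adjusted p = 0.383). IRF9, its DNA-binding partner, had 15.6, 13.3 and 15.9 CPM in knockdown and 17.2, 20.7 and 25.7 CPM in scramble libraries (log2 fold change -0.50, edgeR adjusted p = 0.135). So the values of the partners lay on opposite sides, STAT2 above and IRF9 below in every knockdown library. IRF1 had 28.5, 28.4 and 27.8 CPM in knockdown and 35.2, 38.0 and 44.0 CPM in scramble libraries (log2 fold change -0.47, edgeR adjusted p = 0.0944). IRF7, which amplifies interferon-alpha production, had 3.9, 2.6 and 3.97 CPM in knockdown and 5.2, 4.36 and 6.39 CPM in scramble libraries (log2 fold change -0.60, edgeR adjusted p = 0.162). Without scramble replicate 3, STAT2 was called higher (log2 fold change 0.31) and IRF1 and IRF9 lower (log2 fold changes -0.37 and -0.34).

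The IFIT genes, whose products bind viral RNA lacking the host's cap marks and which are among the strongest interferon targets in most cells, had 0 of 4 called by edgeR, DESeq2 or limma-voom, with or without scramble replicate 3 in edgeR, and 0 of 4 at an unadjusted p under 0.05. IFIT1 had 2.0, 2.6 and 1.59 CPM in knockdown and 3.53, 1.3 and 1.55 CPM in scramble libraries (log2 fold change -0.05, edgeR adjusted p = 0.961). IFIT3 had 8.3, 9.89 and 7.95 CPM in knockdown and 6.5, 9.19 and 4.45 CPM in scramble libraries (log2 fold change 0.37, edgeR adjusted p = 0.426). The groups overlapped in both, as they did in IFIT2 (log2 fold change 0.26) and IFIT5 (0.14). Of the IFITM genes, which block viral entry at membranes, IFITM2 had 9.2, 9.69 and 10.5 CPM in knockdown and 5.94, 5.38 and 8.52 CPM in scramble libraries. All knockdown libraries were above. Without a correction, edgeR called it where scramble replicate 3 was left out (log2 fold change 0.79, adjusted p = 0.000208) and not with it (0.57, adjusted p = 0.125). With all 6 libraries, edgeR called it under the GC content and length correction (adjusted p = 0.00421, or 0.0163 with the replicate block added). So did limma-voom with library quality weights (adjusted p = 7.93e-05). IFITM3 overlapped between the groups (log2 fold change 0.06), and IFITM1 had at most 0.1 CPM. The IFITM genes are near copies of each other, so reads may be split between them.

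PARP9 and PARP14, ADP-ribosyltransferases induced by interferon, both missed the threshold in edgeR with all 6 libraries and no block or correction. PARP9 had 20.8, 19.3 and 20.6 CPM in knockdown and 13.1, 15.2 and 9.01 CPM in scramble libraries. The groups did not overlap, and the log2 fold change was 0.70 (SE 0.21, edgeR adjusted p = 0.0609). PARP9 was called higher without scramble replicate 3 (0.51, edgeR adjusted p = 0.000336). With all 6 libraries, DESeq2 (adjusted p = 0.0453) and limma-voom with library quality weights (adjusted p = 0.000159) called it. So did edgeR with the replicate block (adjusted p = 0.0476), the GC content and length correction (0.00455), or both (0.0163). PARP14 had 58.3, 61.8 and 65.9 CPM in knockdown and 79.4, 87.1 and 32.6 CPM in scramble libraries. The knockdown libraries lay between scramble replicate 3 and the other scramble libraries, and the log2 fold change was -0.10 with that replicate (edgeR adjusted p = 0.887) and -0.43 without it (adjusted p = 5.44e-06).

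Of the other interferon-induced proteins, LGALS3BP, a secreted glycoprotein that binds galectins (Entrez gene 3959, chromosome 17), fell. It had 61.8, 64.3 and 55.3 CPM in knockdown and 103.7, 95.8 and 148.4 CPM in scramble libraries, with no overlap and scramble replicate 3 highest. The knockdown mean was 0.522 of the scramble mean (log2 fold change -0.94, SE 0.20, edgeR adjusted p = 0.0144, and -0.72 without scramble replicate 3, adjusted p = 1.96e-09). Leaving out any single knockdown library ended the call (adjusted p = 0.0689 to 0.0988). XAF1, a pro-apoptotic protein, had 2.9, 2.2 and 2.48 CPM in knockdown and 4.55, 3.99 and 1.26 CPM in scramble libraries. In edgeR without a correction it was called lower without scramble replicate 3 (log2 fold change -0.76, adjusted p = 0.0123) and not with it (-0.37, adjusted p = 0.637). IFI35 had 24.4, 25.7 and 21.0 CPM in knockdown and 22.8, 27.3 and 39.8 CPM in scramble libraries, which overlapped (log2 fold change -0.34, edgeR adjusted p = 0.398). IFI6, a mitochondrial and membrane protein that is usually strongly induced, had 3.1, 2.9 and 2.88 CPM in knockdown and 2.69, 1.86 and 2.91 CPM in scramble libraries (log2 fold change 0.25, edgeR adjusted p = 0.591).

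**Figure D3:**
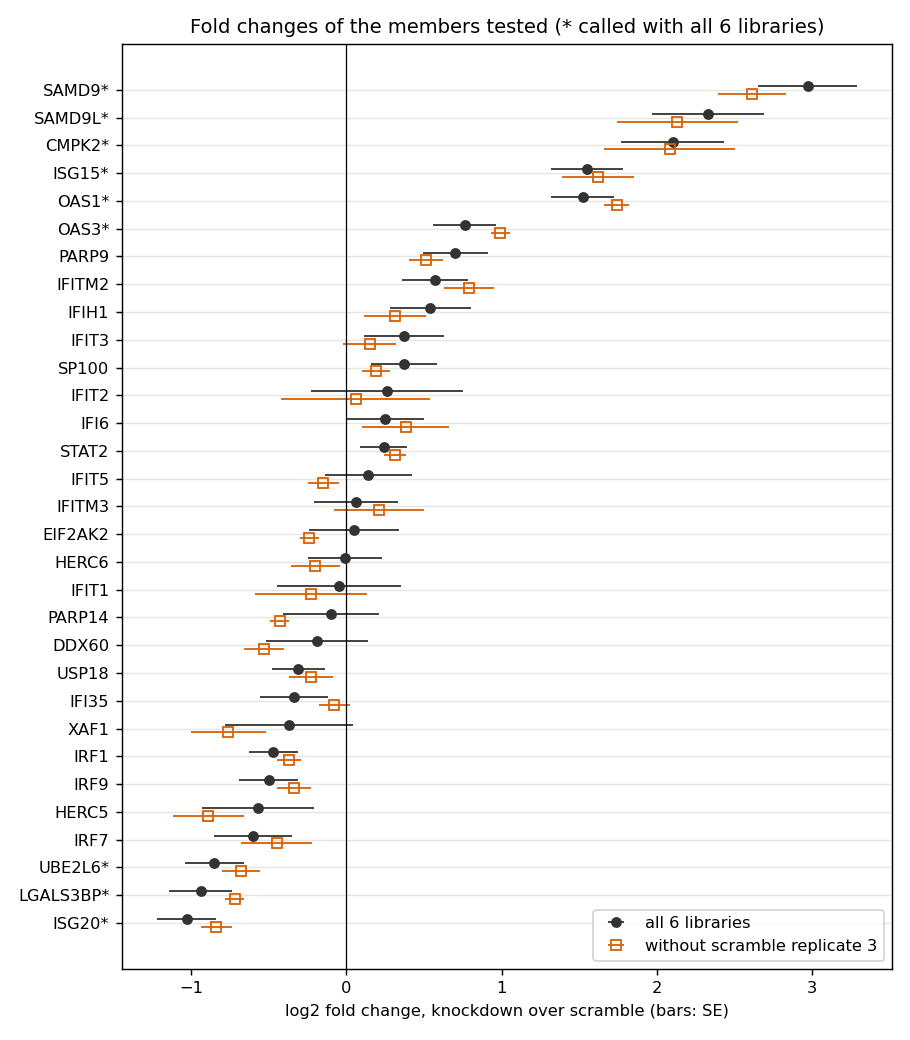
Log2 fold change of the 31 tested members, knockdown over scramble, with SE bars, from all 6 libraries (filled circles) and without scramble replicate 3 (open squares); an asterisk marks the 9 called with all 6 libraries. SAMD9 is at the top at 2.97 and ISG20 at the bottom at -1.03, and 17 of the 31 lie right of 0.

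The 11 members too low to test were DHX58, OAS2, OASL, IFITM1, MX1, MX2, RSAD2, BST2, IFI27, IFI44 and IFI44L, each between 0 and 1.99 CPM. They include the genes whose rise most often marks a strong type I response. Together they had 27.9, 23.9 and 38.3 expected counts in knockdown and 31.9, 24.0 and 20.8 in scramble libraries, so the sums overlapped. Of the 11, 2, 2 and 3 were at 0 in knockdown and 4, 3 and 4 in scramble libraries. IFI44 was at 0 in every scramble library and at 0.1, 0.2 and 0 CPM in knockdown libraries, which is below the level of 3 counts. Tested with no filter on low counts, 0 of the 11 were called by edgeR and 0 had an unadjusted p under 0.05. RSAD2 was also tested without scramble replicate 3 and was not called (log2 fold change 0.37, edgeR adjusted p = 0.558). Whether a rise in these 11 members could be seen at this depth was not tested. CMPK2, with 4, 7 and 5 counts in the scramble libraries, was tested only because its knockdown counts were high.

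Per transcript length, in the FPKM values the authors deposited, the members covered a wide range: 25 of 42 averaged at least 1 FPKM over the 6 libraries and 9 at least 10 FPKM, where the median of all listed genes was 3.4 FPKM. OAS1 was the highest in knockdown cells and LGALS3BP in scramble cells. OAS1 had 33.0 ± 0.179 FPKM in knockdown and 11.8 ± 2.29 FPKM in scramble libraries, and LGALS3BP had 26.0 ± 1.93 FPKM in knockdown and 51.5 ± 10.1 FPKM in scramble libraries (SD, n = 3 each). IFI35 had 18.6 ± 1.87 FPKM in knockdown and 24.3 ± 6.07 FPKM in scramble libraries. EIF2AK2 had 14.3 ± 1.23 FPKM in knockdown and 14.4 ± 6.22 FPKM in scramble libraries, and OAS3 16.9 ± 0.535 FPKM in knockdown and 10.4 ± 2.28 FPKM in scramble libraries. In scramble cells OAS1, OAS3 and EIF2AK2 lay within their spread of each other, and in knockdown cells OAS1 stood above LGALS3BP, IFI35, OAS3 and EIF2AK2. The deposited mean transcript length, which weights isoforms by their estimated share, varied by more than 1 base in 17 of the 36 members listed in all 6 libraries. The groups lay apart by more than 1 base in 2 of the 17 (11.8%), beside 10.4% of the 7710 genes whose length varied. In SAMD9L it averaged 6733 bases in knockdown and 7044 bases in scramble libraries. The scramble values there rest on 10.13, 3.75 and 4.17 expected counts. The nearest SAMD9L values were 6777.88 bases in knockdown and 6793 bases in scramble libraries. The other gene, OAS2, rests on a handful of reads too.

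The shift of scramble replicate 3 split the members by GC content. All 14 tested members under 46% GC were lower in it than in the other scramble libraries (median -0.96 on the log2 CPM scale, from -1.68 in XAF1 to -0.40 in IFIT2, beside -0.80 for all tested genes under 46% GC). The 16 at or above 46% GC had a median shift of 0.43. DDX60, EIF2AK2, HERC5, PARP14 and XAF1 were among the first set. In edgeR without a correction, all 5 were called lower without that library and not with it. With library quality weights in limma-voom, DDX60, EIF2AK2 and HERC5 were called lower with all 6 libraries too (adjusted p = 0.00153, 0.0169 and 0.000964). HERC5 was also called lower with the GC content and length correction and replicate block (edgeR adjusted p = 0.0481). Of the genes called in the uncorrected edgeR fit of all 6 libraries, SAMD9 alone belonged to the first set. SAMD9L had no GC value. With a correction for GC content and length, 30 members were tested, and 8 rose and 5 fell, beside backgrounds of 15.4% and 19% of all genes tested. OAS1, ISG15, CMPK2 and SAMD9 were called higher in all 16 alternatives that used the same threshold, and SAMD9L in the 14 that could test it.

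**Figure D4:**
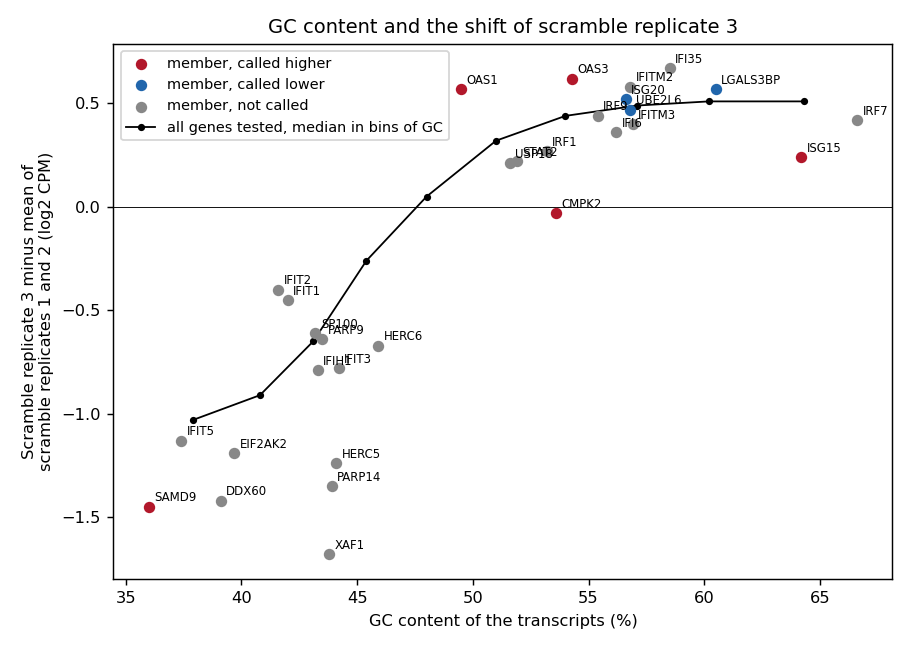
How far scramble replicate 3 lay from the average of the other scramble libraries (log2 CPM) against the GC content of the transcripts (%) for the tested members with a GC value, coloured by their call, with the median of all tested genes in bins of GC as a line. The line runs from -1.03 at 37.9% GC to 0.51 at 64.3% GC, and the members lie around it, with OAS1 above it and XAF1 below it.

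The rest of the pathway was read from 86 other genes, of which 66 had a value and 57 were tested. With all 6 libraries, 2 rose (3.51%, beside 5.89% of all genes) and 7 fell (12.3%, beside 5.64%). At an unadjusted p under 0.05 there were 15, with no share of all genes to set beside them. Without scramble replicate 3, 9 rose (15.8%, beside 25.7% of all genes) and 18 fell (31.6%, beside 23.8%). All 9 called with 6 libraries were called in the same direction without that replicate too. Interferon transcripts themselves were close to absent. For 17 of the 22 ligand genes the files used here list no row, and IFNA1, IFNA13, IFNW1 and IFNL4 had at most 1 count in any library. IFNE, an epithelial type I interferon, had 2.2, 1.8 and 2.09 CPM in knockdown and 2.69, 2.78 and 0.775 CPM in scramble libraries, which overlapped (log2 fold change -0.05, edgeR adjusted p = 0.963).

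Among 10 tested receptor and JAK-STAT genes, one chain of the interferon gamma receptor rose and the other fell. IFNGR1, the ligand-binding chain, had 85.0, 85.0 and 83.3 CPM in knockdown and 58.2, 54.5 and 32.0 CPM in scramble libraries (log2 fold change 0.81, SE 0.22, edgeR adjusted p = 0.0474). IFNGR2, the signalling chain, had 42, 36.7 and 38.5 CPM in knockdown and 58.2, 52.8 and 84.0 CPM in scramble libraries (log2 fold change -0.73, edgeR adjusted p = 0.0463). Neither overlapped between the groups, and both were called in the same direction without scramble replicate 3 (0.58 and -0.51). The call of IFNGR2 was lost in limma-voom (adjusted p = 0.0572) and that of IFNGR1 with RLE size factors (edgeR adjusted p = 0.0534). The replicate block (edgeR adjusted p = 0.0511) and leaving out scramble replicate 1 (0.0633) also ended the IFNGR2 call. Leaving out scramble replicate 2 ended that of IFNGR1 (edgeR adjusted p = 0.0733). The type I receptor genes, chosen for mention after their values were seen, passed the test in neither direction with all 6 libraries (log2 fold change 0.29 for IFNAR1, edgeR adjusted p = 0.502, and -0.52 for IFNAR2, adjusted p = 0.0856). IFNAR2 did not overlap between the groups and was called lower without scramble replicate 3 (-0.40, edgeR adjusted p = 0.000246).

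Of 15 tested genes that sense nucleic acid upstream of interferon, 2 fell. CGAS, the cytosolic DNA sensor, had 4.7, 3.0 and 3.68 CPM in knockdown and 6.32, 6.03 and 7.46 CPM in scramble libraries (log2 fold change -0.80, edgeR adjusted p = 0.0496). That call was lost with no filter (edgeR adjusted p = 0.052) and in DESeq2 (adjusted p = 0.0664). It was also lost in edgeR with the replicate block (adjusted p = 0.0559) and without scramble replicate 1 or 2 (0.0905 and 0.0802). DESeq2 called TRIM25, a ligase that activates RIG-I, lower in place of CGAS (adjusted p = 0.0258, against 0.0523 in edgeR). IRF5, a transcription factor downstream of Toll-like receptors, had 9.7, 10.1 and 8.54 CPM in knockdown and 13.4, 15.2 and 22.5 CPM in scramble libraries (log2 fold change -0.85, edgeR adjusted p = 0.0375). Leaving out scramble replicate 2 ended the IRF5 call (edgeR adjusted p = 0.0561). Neither CGAS nor IRF5 overlapped between the groups. RIGI, chosen for mention after its values were seen, had 6.2, 7.69 and 8.34 CPM in knockdown and 7.34, 6.68 and 3.2 CPM in scramble libraries, which overlapped (log2 fold change 0.37, edgeR adjusted p = 0.5). Of 8 tested genes of the small RNA pathway that processes hairpins, 0 were called by edgeR, DESeq2 or limma-voom, with 2 at an unadjusted p under 0.05 in edgeR, and 3 were called higher and 2 lower without scramble replicate 3, where 49.5% of all genes were called.

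Among 12 tested brakes of the pathway, SOCS3, which blocks JAK kinases, fell, with 19.2, 20.2 and 19 CPM in knockdown and 32.0, 31.2 and 43.5 CPM in scramble libraries (log2 fold change -0.87, edgeR adjusted p = 0.0145). Of 11 tested genes that respond mainly to interferon gamma, 1 rose and 3 fell. PSMB8, an immunoproteasome subunit, had 5.4, 4.69 and 5.76 CPM in knockdown and 10.5, 10.1 and 15.4 CPM in scramble libraries (log2 fold change -1.18, edgeR adjusted p = 0.00833). GBP5, a guanylate-binding protein, had 1.5, 1.3 and 1.49 CPM in knockdown and 3.53, 2.78 and 2.32 CPM in scramble libraries (log2 fold change -1.01, edgeR adjusted p = 0.041). DESeq2 did not call it (adjusted p = 0.0977). Nor did edgeR with the replicate block (adjusted p = 0.066) or without scramble replicate 1 or 2 (0.131 and 0.0875). All knockdown libraries were below all scramble libraries in PSMB8 and GBP5. WARS1, the cytoplasmic tryptophanyl-tRNA synthetase, had 172.6, 163.6 and 167.2 CPM in knockdown and 242.7, 238.7 and 352.0 CPM in scramble libraries (log2 fold change -0.73, edgeR adjusted p = 0.0306). APOL1, an apolipoprotein that kills trypanosomes, was the one that rose, with 38.2, 36.6 and 37.1 CPM in knockdown and 17.2, 19.2 and 23.0 CPM in scramble libraries (log2 fold change 0.91, SE 0.17, edgeR adjusted p = 0.00799, and 1.04 without scramble replicate 3). With any single knockdown library left out, the 86 genes gave 0 calls higher and at most 1 lower by edgeR.

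**Figure D5:**
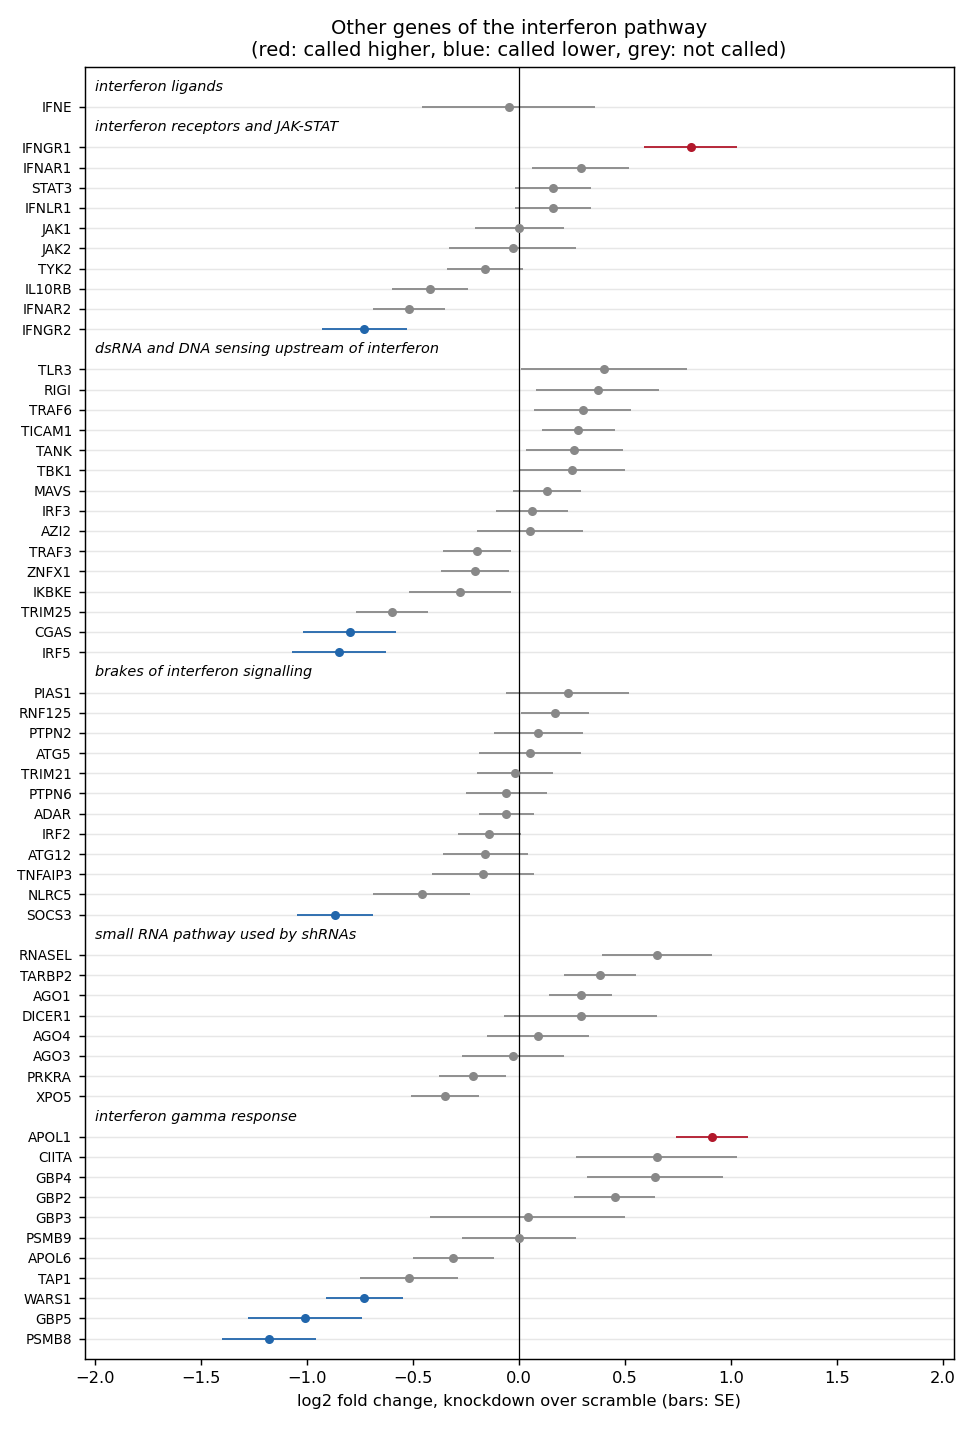
Log2 fold change, knockdown over scramble, with SE bars, for the 57 tested genes of the interferon pathway outside the 42 members, grouped by role; red marks the 2 called higher, blue the 7 called lower and grey the rest. IFNGR1 and APOL1 are the red points, and the blue points lie between -1.18 for PSMB8 and -0.73 for IFNGR2 and WARS1.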

How the data were processed

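Per the labels' protocols, total RNA was extracted with Trizol and poly(A)-selected TruSeq libraries were made. The submitters' processing notes name BWA, Bowtie2, RSEM and build hg19; their versions, the annotation and any strand setting are not stated there. The authors deposited, per the file headers, expected counts, FPKM and mean transcript lengths per Entrez gene and library. FPKM was used only to compare levels between genes.

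Expected counts were rounded, and a gene a library did not list was taken as 0. Of the 20824 IDs, 20727 matched a RefSeq symbol; the other 97 stayed in the fit (0.147% of counts). Genes passing filterByExpr (minimum count 10, total 15) were fitted with edgeR 4.0.16 (R 4.3.3) by glmQLFit and glmQLFTest with TMM scaling and no covariate, with Benjamini-Hochberg adjustment over all genes tested and a threshold of 0.05. The pipeline was tested on simulated data. Alternatives were other scalings and filters, a replicate block, a 2-fold minimum, and each library left out. DESeq2 1.42.0 and limma 3.58.1 voom, with and without quality weights, were run too. Another alternative was a correction for GC content and length (spline with 5 degrees of freedom). GC content came from GENCODE 29 transcripts matched by RefSeq accession. The 3-count level covers counting error only. The SE comes from the edgeR fit and, like the SD, includes the variation between libraries.

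Named were the members called with all 6 libraries, those called without scramble replicate 3 at a log2 fold change of at least 0.5 in size, the 5 with the highest mean FPKM, called genes of the wider pathway (up to 4 per list) and ligands with any count; further members are named to account for the list. The members and lists were chosen with earlier results of these data known. Same-numbered libraries of the 2 groups did not deviate together from their group means. Scramble replicate 3 dominates such deviations, so this cannot tell whether the numbers pair libraries, and the labels state no pairing. One gene of the wider pathway is not reported here.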

Additional observations from a re-analysis of the deposited data

How the results depend on the processing

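OAS1, ISG15, CMPK2, SAMD9 and SAMD9L kept their call and direction in every alternative that could test them. The members called higher numbered 5 to 9 when 1 library was left out, and those called lower 0 to 10: 0 without any one of the 3 knockdown replicates (with 3, 3 and 4 at an unadjusted p under 0.05 in edgeR) and 10 without scramble replicate 3. Over all genes, 729 to 7439 were called with 1 library left out, the lowest counts without a knockdown replicate (766, 742 and 729) and the highest without scramble replicate 3. The GC content and length correction gave 4887 calls over all genes, 5 members lower, 4 other pathway genes higher and 16 lower, and a member median of -0.08. Adding the replicate block to it gave 4197, 5, 4, 15 and -0.07. Library quality weights in limma-voom gave 7327, 10, 10, 18 and -0.08. The 2-fold minimum left 910 genes, 1 member lower, and 0 pathway genes higher and 2 lower. RLE size factors left 1 pathway gene higher. Leaving out 1 library gave 0 to 9 pathway genes higher, 0 to 18 lower, and a member median of -0.01 to 0.22 (0.22 without scramble replicate 1). The replicate block alone gave 1654 calls, 7 members higher and 3 lower, and 4 pathway genes lower. The correlations of same-numbered libraries' deviations were -0.017, -0.032 and -0.022, which cannot tell whether the numbers pair libraries. DDX60, not called by edgeR with all 6 libraries, was between -0.53 and 0.04 with 1 library left out, the 0.04 without scramble replicate 2. EIF2AK2, not called by edgeR with all 6 libraries, reversed to -0.12 under the GC correction with or without the block. It reversed to -0.23 with quality weights (limma-voom adjusted p = 0.0169) and to -0.24 without scramble replicate 3 (edgeR adjusted p = 0.00322). The spread between libraries, as edgeR's biological coefficient of variation, was 18.9% over all 6 libraries, or 2.97% when scramble replicate 3 was dropped; the cause of these moves was not tested. Of the 11 members near 0, 0 were called by edgeR with no filter on low counts, and 0 had an unadjusted p under 0.05.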
